A study of Mus musculus with 6 samples.

Results

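The nuclear genes that encode subunits of the mitochondrial respiratory chain and of ATP synthase were followed across 3 mouse hind limb tissues. Members were taken by gene symbol: Nduf genes of the series a, b, c, s and v, the 4 Sdh genes, and all genes beginning with Uqcr, with Cox4 to Cox8 or with Atp5. The rule found 85 genes among the 20672 in any count table. They comprised 36 genes of complex I (29 accessory and 7 core subunits), 4 of complex II, 8 of complex III, 20 of complex IV and 17 of complex V. Of these, 83 were listed in all 3 count tables, and all 83 passed the filter on low counts and were tested. The other 2, Cox7b2 and Cox8c, were listed in the fat pad tables only. Ndufa4, whose product is a subunit of complex IV despite its name, was placed there with Cox7a2l, a supercomplex assembly factor. The 13 subunits encoded by mitochondrial DNA were not analysed here.

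Libraries were made from the infrapatellar fat pad (fatty tissue of the knee, under the patellar tendon), the rectus femoris (in the thigh, called muscle below) and the Achilles tendon, with 2 libraries per tissue. The series title names female mice, and no strain, genotype or age is given. The label that separates the 3 tissues is the treatment label, while the source label names the fat pad for all 6 libraries. Letrozole, a drug that blocks aromatase and so the synthesis of oestrogen, is named in the titles of the fat pad libraries and in no other title, and no label marks a treated and an untreated library within a tissue. If the name marks treatment, effects of the drug and of the tissue cannot be told apart in any comparison with the fat pad. The codes in the titles also differ by tissue, and what they stand for is not given. Separate animals are not stated, so each p-value rests on the spread between libraries of a tissue, which may be technical only.

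In the respiratory chain, complex I (NADH dehydrogenase) and complex II (succinate dehydrogenase, which is also an enzyme of the citric acid cycle) pass electrons to ubiquinone. Complex III passes them to cytochrome c and complex IV, cytochrome c oxidase, passes them to oxygen. Complexes I, III and IV pump protons, and complex V, ATP synthase, uses the proton gradient to make ATP. Several small subunits of complex IV exist as a form found mainly in heart and skeletal muscle and a form found in most tissues. White fat has few mitochondria per cell by volume, while skeletal muscle fibres vary in mitochondrial content with fibre type.

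Total counts were 83132413 and 106319037 for fat pad, 56216295 and 58544836 for muscle, and 59042675 and 62063826 for tendon. Adipocyte and fast-fibre markers were high where the labels place them. In the fat pad, 7 adipocyte markers summed to 70973 and 77292 CPM (TMM-scaled read counts, set to a common library size). In muscle, 7 fast-fibre markers summed to 235907 and 216061 CPM. The tendon libraries held tenocyte markers (7779 and 11988 CPM over 6 genes) together with fast-fibre markers (13109 and 53197 CPM) and slow-fibre markers (9650 and 4880 CPM over 6 genes). The same slow-fibre markers summed to only 17.8 and 53.9 CPM in muscle. TMM, the trimmed mean of M-values, scales libraries so that most genes are level between them. In whole tissue, fewer cells of a type and less RNA per cell cannot be told apart.

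Summed over the members of a complex, complex I transcripts stood at 8740 and 10993 CPM for fat pad, 9128 and 7884 for muscle, and 3577 and 4118 for tendon. The fat pad and muscle libraries overlapped, and both tendon libraries lay below them. In complex IV both muscle libraries lay below the fat pad ones, with 5074 and 6539 CPM for fat pad, 5019 and 4098 for muscle, and 2150 and 2336 for tendon. Complex III stood at 2945 and 3752, at 3209 and 2850, and at 1443 and 1571 CPM. Complex II summed to 1841 and 1886 CPM for fat pad, 2292 and 2354 for muscle, and 1117 and 1144 for tendon, so that the 3 tissues did not overlap and muscle stood highest. Complex V was the one complex whose fat pad values lay nearer to tendon than to muscle: 5922 and 7316 CPM for fat pad, 11966 and 11091 for muscle, and 5431 and 5853 for tendon. As a plain share of all counts, with no TMM scaling, the 83 to 85 listed members took 2.67% and 3.22% for fat pad, 2.30% and 2.19% for muscle, and 1.80% and 1.76% for tendon. On that scale complexes I to IV were highest in the fat pad and lowest in tendon, with no overlap. Complex II took 0.200% and 0.199% for fat pad, 0.166% and 0.183% for muscle, and 0.147% and 0.134% for tendon, so that without TMM it was not highest in muscle. Complex V took 0.644% and 0.774% for fat pad, 0.869% and 0.860% for muscle, and 0.714% and 0.686% for tendon, and the fat pad and tendon overlapped.

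**Figure D1:**
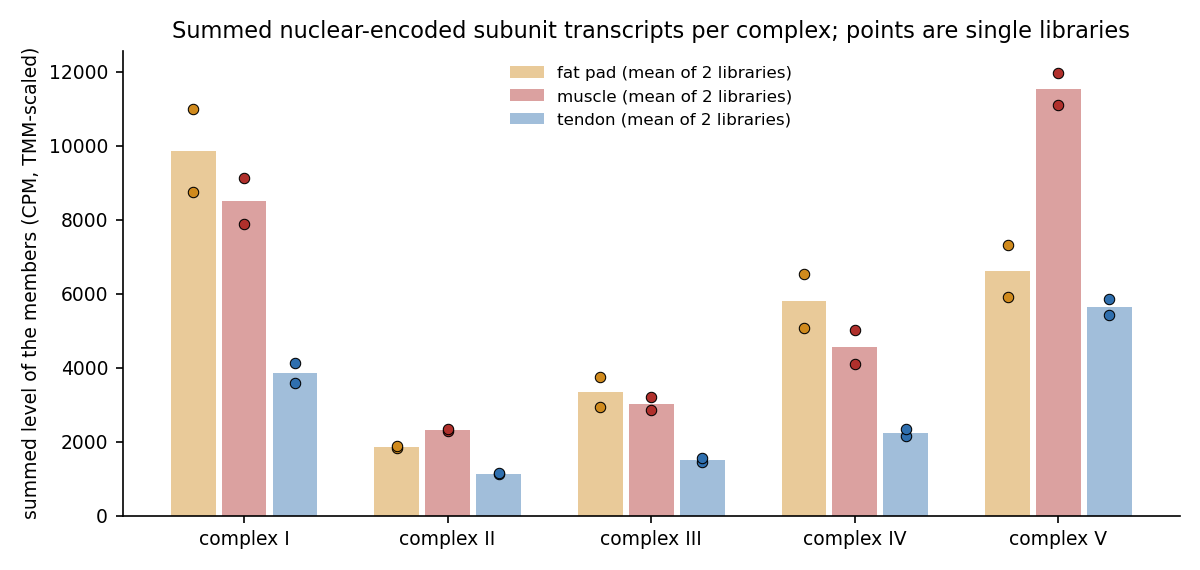
Summed level of the members of each complex, in TMM-scaled CPM on the vertical axis, with bars for the mean of the 2 libraries of a tissue and points for single libraries. On this scale tendon is lowest for each complex, and for complex V the muscle libraries (11966 and 11091 CPM) stand apart from the other 4.

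Which subunit was most abundant differed between tissues when levels were divided by exonic length (CPM per kb, the scale used here to compare genes within a library). In the fat pad the highest was Ndufa1, an accessory subunit of the membrane arm of complex I, at 1382 CPM per kb (mean of 2 libraries), followed by Cox6a1 at 1276, Uqcr11 at 998, Cox8b at 936 and Cox8a at 930. In muscle the highest was Cox6a2 at 1181.5 CPM per kb, followed by the beta and alpha subunits of ATP synthase, Atp5b at 889 and Atp5a1 at 878. In tendon the same 3 genes led, with Atp5a1 at 476, Cox6a2 at 437 and Atp5b at 422 CPM per kb. The libraries of a tissue overlapped for several neighbours in these orders: in the fat pad Ndufa1 ranged from 1346 to 1419 and Cox6a1 from 1147 to 1405, and in tendon Cox6a2 ranged from 423 to 451 and Atp5b from 408 to 435. Ndufa1 (419 bases), Uqcr11 (641) and Cox8b (360) are short, as is Cox6a2 (680), while Atp5b (4237) and Atp5a1 (3135) are longer. Short genes as a whole lay higher in the fat pad, as given below, and dividing by length does not remove that. Its part in the change of leaders was not tested.

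In both comparisons with the fat pad the highest and the lowest fold change of all members belonged to complex IV isoforms. For 3 subunits the tables hold a muscle form and a ubiquitous partner: Cox6a2 with Cox6a1, Cox7a1 with Cox7a2, and Cox8b with Cox8a. The first pair encodes subunit VIa, the next subunit VIIa and the last subunit VIII. The 250 bases before the RefSeq transcription start of 5 of these genes are printed on the coding strand, so that the start regions of partner genes can be read side by side. They come from RefSeq on GRCm38.p6, while the submitters' processing notes name GRCm39 for the files. Cox6a1 lies at chr5:115348959-115349208 (minus strand), Cox7a1 at chr7:30183921-30184170 (plus), Cox7a2 at chr9:79759854-79760103 (minus), Cox8a at chr19:7217617-7217866 (minus) and Cox8b at chr7:140900447-140900696 (minus). Capitals mark matches to the motifs described after the sequences.
Cox6a1: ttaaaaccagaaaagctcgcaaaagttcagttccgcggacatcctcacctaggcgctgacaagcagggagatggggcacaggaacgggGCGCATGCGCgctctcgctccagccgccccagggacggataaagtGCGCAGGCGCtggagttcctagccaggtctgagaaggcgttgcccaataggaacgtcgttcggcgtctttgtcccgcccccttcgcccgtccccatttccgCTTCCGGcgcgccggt
Cox7a1: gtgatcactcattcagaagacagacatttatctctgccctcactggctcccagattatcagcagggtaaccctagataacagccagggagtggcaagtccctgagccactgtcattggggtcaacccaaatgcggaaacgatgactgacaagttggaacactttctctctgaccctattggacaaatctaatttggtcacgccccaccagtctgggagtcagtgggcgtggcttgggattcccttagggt
Cox7a2: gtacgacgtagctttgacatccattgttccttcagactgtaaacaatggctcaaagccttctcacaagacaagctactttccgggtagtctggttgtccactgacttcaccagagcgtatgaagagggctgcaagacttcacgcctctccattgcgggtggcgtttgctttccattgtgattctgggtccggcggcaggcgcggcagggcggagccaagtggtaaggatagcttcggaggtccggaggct
Cox8a: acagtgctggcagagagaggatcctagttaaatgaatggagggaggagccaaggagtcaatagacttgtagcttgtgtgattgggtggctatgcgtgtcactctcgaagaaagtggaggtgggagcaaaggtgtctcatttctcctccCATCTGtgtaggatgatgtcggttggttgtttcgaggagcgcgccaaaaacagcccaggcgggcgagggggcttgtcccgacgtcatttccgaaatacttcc
Cox8b: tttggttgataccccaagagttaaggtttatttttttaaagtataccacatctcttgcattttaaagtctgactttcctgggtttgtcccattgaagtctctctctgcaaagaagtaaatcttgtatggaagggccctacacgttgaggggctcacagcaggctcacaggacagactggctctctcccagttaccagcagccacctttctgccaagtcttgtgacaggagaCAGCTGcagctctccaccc

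Each window was searched on both strands for 6 motifs. Oestrogen-related receptors, which switch on genes of energy metabolism, bind AAGGTCA. Nuclear respiratory factor 1, named for its action on respiratory genes, binds the GC-rich NRF1 motif, searched with 1 free base. ETS factors, among them the GABP activator of respiratory genes, bind CCGGAAG. Muscle and other basic helix-loop-helix factors bind the E-box, searched as CANCTG. The remaining searches were for the TATA box, written TATAAA, which places the start of transcription in many tissue-restricted genes. The factor YY1, an activator of several nuclear respiratory genes, was searched as AAGATGG. Cox6a1 held 2 NRF1 matches, starting 162 and 117 bases before the start, and 1 ETS match 16 bases before it. Cox8a and Cox8b each held 1 E-box match, 102 and 19 bases before the start, and the windows of Cox7a1 and Cox7a2 held no match to the 6 motifs. Over 74 promoters of 69 matched members, the NRF1 motif was found in 14 (18.9%), against 3.74% of all 32851 RefSeq promoters searched over the same length. The ETS motif was found in 12 (16.2%, against 6.91%), and the oestrogen-related receptor motif in 5 (6.76%, against 4.08%). The E-box was found in 28 (37.8%, against 44.8%), the TATA box in 8 (10.8%, against 12.4%) and the YY1 motif in 1 (1.35%, against 4.49%). A match describes letters in a window, and binding was not measured.

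Cox6a2, the muscle form of subunit VIa, stood at 1.37 and 3.40 CPM for fat pad, 893 and 714 for muscle, and 287 and 307 for tendon. Its partner Cox6a1 stood at 805 and 986 CPM for fat pad, 28.4 and 28.8 for muscle, and 63.8 and 49.1 for tendon. The 3 tissues did not overlap for either gene and their orders were opposite. Against muscle, the fat pad was 336-fold lower in Cox6a2 (log2 fold change -8.39 ± 0.56 (SE), edgeR quasi-likelihood test, Benjamini-Hochberg adjusted p = 5.96e-05 over 15856 genes) and 31.3-fold higher in Cox6a1 (4.97 ± 0.28, edgeR adjusted p = 4.8e-05). Of all counts of the pair, Cox6a2 took 0.170% (95% exact binomial interval 0.141 to 0.203) and 0.343% (0.310 to 0.379) for fat pad, 96.9% and 96.1% for muscle, and 81.8% and 86.2% for tendon. These intervals cover counting error only, since reads copied by PCR are not independent molecules. The mean share was 0.257% ± 0.122 (SD, n = 2) for fat pad, 96.5% ± 0.557 for muscle, and 84.0% ± 3.10 for tendon.

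Cox7a1, the muscle form of subunit VIIa, which is also known in brown fat, stood at 5.08 and 8.11 CPM for fat pad, 224 and 151 for muscle, and 60.3 and 58.2 for tendon. Cox7a2 stood at 333 and 482 CPM, at 166 and 132, and at 76.0 and 79.8. The 3 tissues did not overlap for either gene, and tendon lay between the others for Cox7a1 and lowest for Cox7a2. The fat pad was 28.4-fold lower than muscle in Cox7a1 (log2 fold change -4.83 ± 0.34, edgeR adjusted p = 6.5e-05) and 2.74-fold higher in Cox7a2 (1.45 ± 0.26, edgeR adjusted p = 0.00275), a call lost with an offset for exonic length (0.060, edgeR adjusted p = 0.791). Cox7a1 took 1.58% ± 0.106 of the pair's counts for fat pad, 55.4% ± 2.89 for muscle, and 43.2% ± 1.46 for tendon (SD, n = 2). Because the Cox7a1 model is shorter, its share per kb was higher, at 68.6% in muscle and 57.3% in tendon.

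Cox8b, the muscle form of subunit VIII, did not follow the other muscle forms in the fat pad. It stood at 296 and 378 CPM there, 255 and 171 in muscle, and 77.3 and 90.7 in tendon, so that the fat pad held the highest values. Cox8a stood at 510 and 641 CPM for fat pad, 35.4 and 37.6 for muscle, and 68.8 and 47.8 for tendon. The difference in Cox8b between fat pad and muscle missed the threshold (log2 fold change 0.66 ± 0.27, edgeR adjusted p = 0.0709), while Cox8a was 15.8-fold higher in the fat pad (3.98 ± 0.29, edgeR adjusted p = 6.92e-05). With the length offset, which removes from each library a curve on exonic length of its deviations from the gene means, Cox8b was lower in fat pad than muscle (-1.04, edgeR adjusted p = 0.00279). With total counts in place of TMM it was called higher (1.19). The share of Cox8b was 36.9% ± 0.227 for fat pad, 84.9% ± 4.15 for muscle, and 59.2% ± 8.87 for tendon (SD, n = 2), and 50.2% per kb in the fat pad. Beside these values, the fat pad libraries held Cidea, a gene of brown and beige fat cells, at 190 and 311 CPM, and Ucp1, their uncoupling protein, at 0.0885 and 1.46 CPM. Of the 5 genes listed for these cells, Cidea and Elovl3 were higher in fat pad than muscle and the others were not called, with Dio2 at -0.87 and Ppara at -1.35. Against tendon Cidea and Elovl3 were higher, and Dio2 (-3.99) and Ppara (-1.80) lower. Whether brown or beige fat cells have a part in the Cox8b level was not tested.

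For all 3 pairs the share of the muscle form ranked muscle, tendon, fat pad with no overlap between libraries. An exact two-sided permutation test of any 2 tissues gave p = 0.333 for each of the 9 comparisons, which is the smallest p that 2 libraries against 2 allow, so that none could pass. In tendon the shares stood beside fast-fibre markers that were low in library 1 and high in library 2 (Myh4, the myosin heavy chain of the fastest fibres, at 596 and 19284 CPM). The slow-fibre myosin Myh7 went the other way, at 4983 and 2547 CPM. Cox6a2 was nearly level between the same libraries, at 287 and 307 CPM. In the fat pad the 7 fast-fibre markers summed to 94.3 and 75.6 CPM. The part of muscle fibres in the tendon values was not tested.

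The remaining isoforms of complex IV belong to no pair of muscle and ubiquitous forms. Cox6b1, the common form of subunit VIb, was 1.89-fold higher in fat pad than muscle (log2 fold change 0.92 ± 0.25, edgeR adjusted p = 0.0179), although with the length offset the sign turned (-0.56, edgeR adjusted p = 0.0412). Its testis form Cox6b2 stood at 1.39 and 2.28 CPM for fat pad, 0.441 and 0.550 for muscle, and 1.78 and 0.948 for tendon. It was 3.69-fold higher in fat pad than muscle (1.88 ± 0.65, edgeR adjusted p = 0.0421) at these low levels, and the call was lost with the length offset (0.55, edgeR adjusted p = 0.48), with either muscle library left out (edgeR adjusted p = 0.17 and 0.127) and without fat pad library 2 (edgeR adjusted p = 0.147). Cox4i1, the common form of subunit IV, was not called between fat pad and muscle (0.39, edgeR adjusted p = 0.201), nor was its lung form Cox4i2 (0.33, edgeR adjusted p = 0.559), which stood between 2.14 and 4.23 CPM in all 6 libraries. Cox7b (-0.14, edgeR adjusted p = 0.671) and Cox7a2l (-0.27, edgeR adjusted p = 0.261) were not called either. Cox5a, a subunit with a single form, was 2.41-fold lower in fat pad than muscle (-1.27 ± 0.26, edgeR adjusted p = 0.00536). Counts of Cox5b and its near copy Cox5b-ps are uncertain, since reads of one can be assigned to the other.

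**Figure D2:**
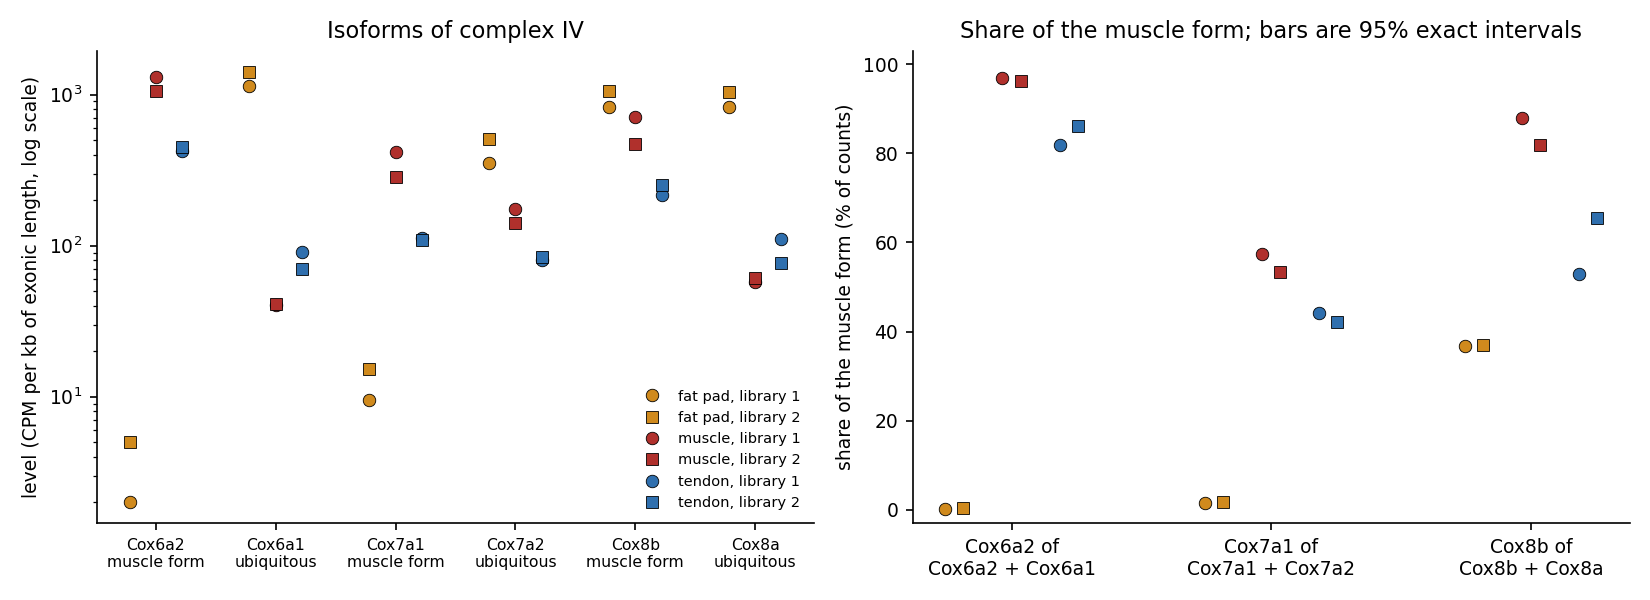
Left, level of each form in CPM per kb on a log axis for the 6 libraries. Right, share of the muscle form in its pair, in % of counts, with 95% exact intervals. Cox6a2 and Cox7a1 fall away in the fat pad, Cox8b does not on the scale drawn, and its share there is 36.8% and 37.1% in the 2 libraries. With the length offset Cox8b was lower in fat pad than muscle (log2 fold change -1.04).

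Exonic length has to be read beside every comparison with the fat pad, because most members are short. Median exonic length was 1550 bases for the members and 4296 for the other genes tested that had a length, and 61 of the 83 members lay among the shortest 20% of genes (243 to 2362 bases). Genes other than the members differed between the fat pad and muscle in step with their length: the median log2 fold change fell from 1.13 in the shortest 20% through 0.66, 0.07 and -0.31 to -0.61 in the longest. Against tendon it fell from 1.10 to -0.90. Between tendon and muscle it moved only from -0.02 to 0.19. Each comparison was therefore also fitted with an offset, chosen after seeing the data, that removes a smooth curve on exonic length from each library. The curve was drawn through the deviation of each gene from its mean log2 level over the 6 libraries. What makes the libraries differ with length was not tested.

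**Figure D3:**
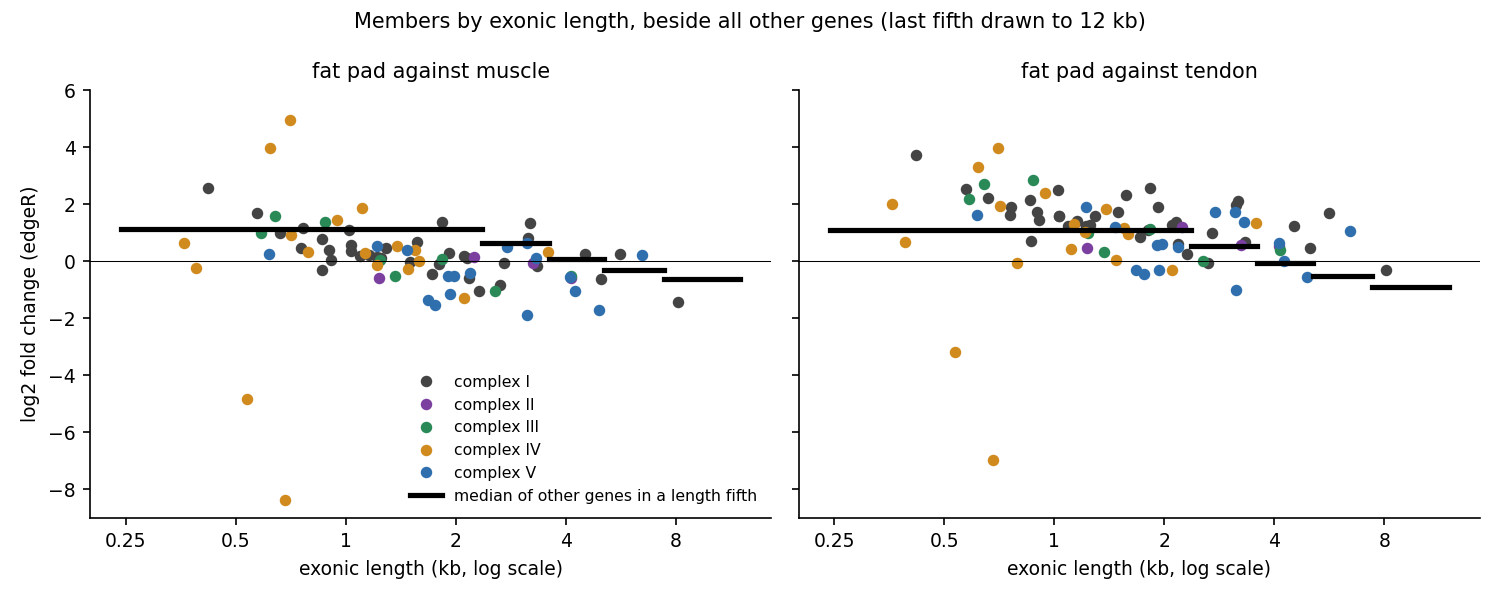
Log2 fold change of each member against exonic length in kb on a log axis, coloured by complex, with black bars for the median of all other genes in each of 5 equal length classes. Short genes lie higher in the fat pad as a whole (median 1.13 against muscle and 1.10 against tendon in the shortest class), and most members sit in that range.

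Between fat pad and muscle, members were called in both directions, and in the main fit less often than genes as a whole. Of 83 members, 19 were higher in the fat pad and 14 lower (adjusted p under 0.05), with a median log2 fold change of 0.15 beside 0.14 over all genes. Of all 15856 genes, 59.4% were called (29.8% higher and 29.6% lower). Core subunits, the F1 head and the c ring supplied most of the lower calls, and small accessory subunits most of the higher ones. With total counts in place of TMM, 46 members were higher and 9 lower, beside 40% and 21.6% of all genes, and the median of all genes moved from 0.14 to 0.66. Under the length offset 5 were higher and 57 lower, beside 27.8% and 30.4% of all genes, and the median of the members was -0.78. Leaving out either muscle library brought the count to 21 called, with 43.6% (without library 1) and 42.2% (without library 2) of all genes called.

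For 12 members the call and its direction were the same in the main fit and in all 16 alternative fits, which covered other scalings, tests and filters, the deposited TPM values, the length offset and each library left out in turn. Higher in the fat pad were Cox6a1 (3.47 to 5.48 over the fits), Cox8a (2.43 to 4.49), Ndufa1 (0.91 to 3.26) and Ndufv3 (0.86 to 1.85). Lower were Cox6a2 (-9.94 to -7.85), Cox7a1 (-6.41 to -3.78), Cox5a (-2.18 to -0.75), Ndufs1 (-1.53 to -0.84), and 4 subunits of ATP synthase: Atp5a1 (-2.36 to -1.36), Atp5d (-2.12 to -0.64), Atp5g1 (-1.85 to -1.13) and Atp5g2 (-2.37 to -0.71). The sign alone was the same in all 17 fits for 14 members higher and 18 lower in the fat pad. For all genes the number with the same call or sign in every fit was not counted. Whether 12 members are many or few therefore cannot be said.

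In complex I, 10 of the 29 accessory subunits were higher in fat pad than muscle and none lower (median 0.31). Of the 7 core subunits 3 were lower and none higher (median -0.59). Over all genes 29.8% were higher and 29.6% lower, so the higher accessory calls lay near the share of all genes. Ndufa1 stood at 564 and 595 CPM for fat pad, 111 and 85.7 for muscle, and 37.5 and 49.5 for tendon. The tissues did not overlap, and the fat pad was 5.90-fold above muscle (log2 fold change 2.56 ± 0.26, edgeR adjusted p = 0.00021). Ndufv3, an accessory subunit at the NADH-binding tip of complex I, stood at 217 and 300 CPM for fat pad, 114 and 91.4 for muscle, and 58.4 and 59.4 for tendon (fat pad against muscle 1.33 ± 0.24, edgeR adjusted p = 0.00269). Among the core subunits, Ndufs1, which carries iron-sulphur clusters, stood at 208 and 176 CPM for fat pad, 479 and 551 for muscle, and 236.7 and 237.2 for tendon. It was 2.69-fold lower in fat pad than muscle (-1.43 ± 0.22, edgeR adjusted p = 0.0015). Ndufv1, which binds NADH, was 1.79-fold lower (-0.84 ± 0.21, edgeR adjusted p = 0.0124). Under the offset all 7 core subunits were lower in the fat pad (median -1.46), and of the accessory subunits 17 were lower and 2 higher (median -0.66). Of all genes 30.4% were lower and 27.8% higher in that fit. The difference between core and accessory subunits was itself not tested.

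Of complex II and the 3 large subunits of complex III, 1 gene each was called between fat pad and muscle. Sdha, the flavoprotein that oxidises succinate, stood at 832 and 798 CPM for fat pad, 1161 and 1271 for muscle, and 552 and 554 for tendon. The 3 tissues did not overlap, but the difference between fat pad and muscle missed the threshold (-0.58 ± 0.24, edgeR adjusted p = 0.0787). Of the others, the iron-sulphur subunit Sdhb gave 0.15 (edgeR adjusted p = 0.595) and the membrane anchor Sdhc -0.04 (edgeR adjusted p = 0.864). The anchor Sdhd was 1.50-fold lower in the fat pad (-0.58 ± 0.21, edgeR adjusted p = 0.0458). In complex III, the core protein Uqcrc2 was 2.05-fold lower (-1.03 ± 0.22, edgeR adjusted p = 0.00656). The core protein Uqcrc1 (-0.51, edgeR adjusted p = 0.101) and the Rieske iron-sulphur protein Uqcrfs1 (-0.52, edgeR adjusted p = 0.0765) were not called. Of the 5 small subunits 3 were higher in the fat pad (median 0.99), beside 29.8% of all genes. They were led by Uqcr11 at 549 and 730 CPM against 237 and 184 in muscle (1.61 ± 0.28, edgeR adjusted p = 0.00265). Under the offset 5 of 8 complex III subunits and all 4 of complex II were lower in the fat pad and none higher. Of all genes 30.4% were lower and 27.8% higher under that offset. There Uqcrc2 was at -1.78 (edgeR adjusted p = 0.000463) and Sdhd at -1.79 (edgeR adjusted p = 0.000736).

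In ATP synthase the F1 head and the c ring held every lower call, with 4 of 5 and 2 of 3 genes, beside 29.6% of all genes. Atp5a1, the alpha subunit of the F1 head, stood at 677 and 829 CPM for fat pad, 2743 and 2761 for muscle, and 1500 and 1486 for tendon. The tissues did not overlap, and the fat pad was 3.65-fold lower than muscle (-1.87 ± 0.29, edgeR adjusted p = 0.00152). Atp5b, the catalytic beta subunit, stood at 1664 and 1967 CPM for fat pad, 3808 and 3724 for muscle, and 1730 and 1844 for tendon. Here the fat pad was 2.07-fold lower than muscle (-1.05 ± 0.30, edgeR adjusted p = 0.0217) and overlapped tendon. The delta and epsilon subunits were also lower, Atp5d by -1.15 ± 0.23 (edgeR adjusted p = 0.00482) and Atp5e by -1.52 ± 0.30 (edgeR adjusted p = 0.00425), and the gamma subunit Atp5c1 was not called (-0.53, edgeR adjusted p = 0.123). The c ring, which turns with the proton flow, has 3 genes that encode the same mature protein. Of these Atp5g1, at 65.3 and 70.4 CPM for fat pad and 244 and 200 for muscle, was 3.27-fold lower (-1.71 ± 0.22, edgeR adjusted p = 0.00059). Atp5g2 was 2.54-fold lower (-1.35 ± 0.25, edgeR adjusted p = 0.00352), and Atp5g3, the most abundant of them per kb in every library, was not called (-0.42, edgeR adjusted p = 0.167). Of the 9 membrane and stalk subunits 1 was called, Atp5md, which was higher in the fat pad (0.52 ± 0.18, edgeR adjusted p = 0.0453) and lost the call with the length offset (-0.14, edgeR adjusted p = 0.471).

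**Figure D4:**
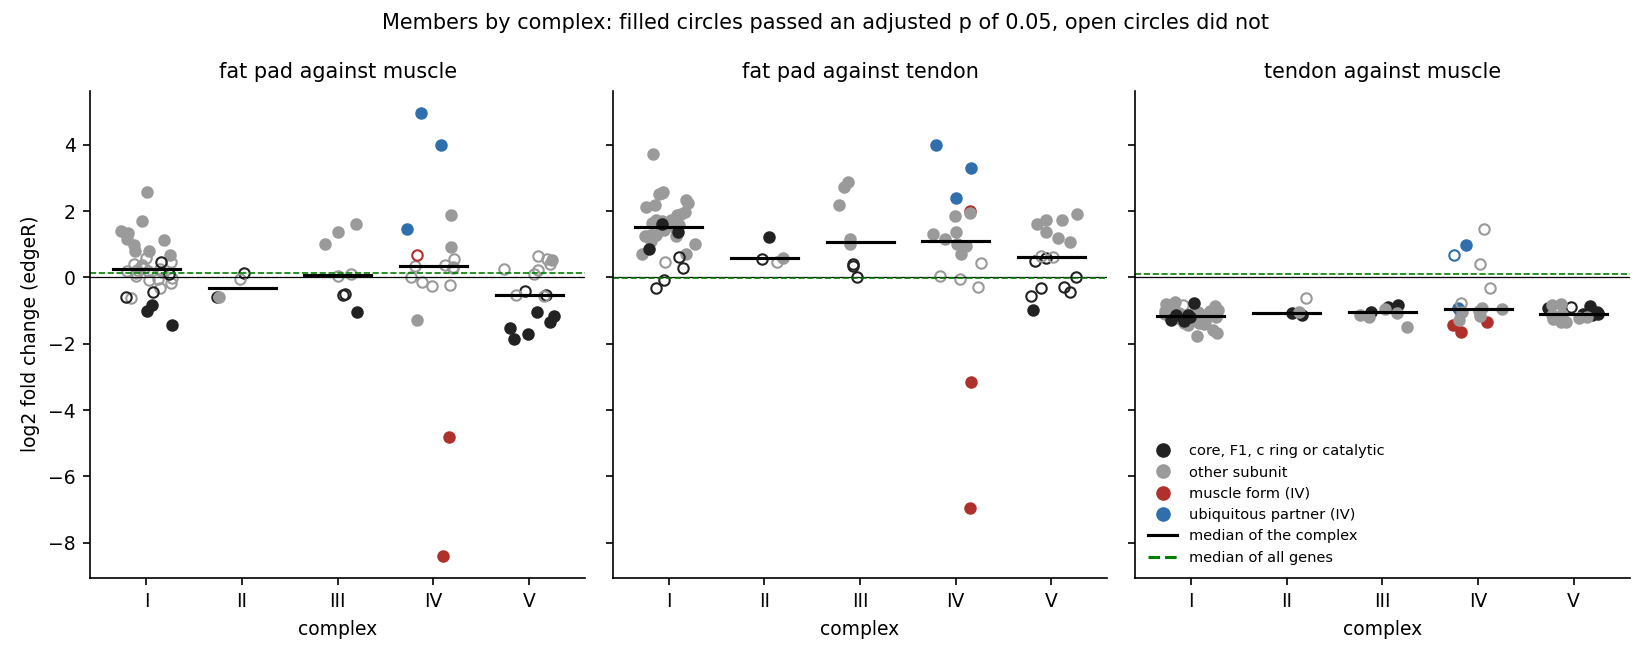
Log2 fold change of each member by complex in the 3 comparisons. Filled circles passed an adjusted p of 0.05, black bars are medians of a complex, and the green line is the median of all genes (0.14, -0.01 and 0.10 from left to right). Dark circles (core, F1, c ring and catalytic subunits) lie mostly below grey ones in the comparisons with the fat pad, and nearly all circles lie below 0 between tendon and muscle.

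Against tendon, the fat pad was higher in 57 of 83 members and lower in 3, where 27.2% of all genes were higher and 31.4% lower (58.5% called). The median log2 fold change was 1.23 beside -0.01 over all genes. Higher calls covered 28 of 29 accessory subunits of complex I (median 1.63), 3 of its 7 core subunits (median 0.60), all 5 small subunits of complex III (median 2.19), and all 5 membrane and 2 of 4 stalk subunits of complex V. None of the 3 large subunits of complex III was called, nor any of the 3 c ring genes. The 3 lower members were Cox6a2 (-6.96 ± 0.53, edgeR adjusted p = 0.000103), Cox7a1 (-3.17 ± 0.31, edgeR adjusted p = 0.000225) and Atp5a1 (-0.99 ± 0.29, edgeR adjusted p = 0.022). With the length offset 22 members were higher and 16 lower, beside 23.4% and 30.3% of all genes, with a median of 0.07, and 24 of the 60 calls were kept in their direction. With the deposited TPM as scaled by the authors 23 were higher and 26 lower, beside 10.7% and 54.3%.

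In every one of the 17 fits 16 members were higher in fat pad than tendon and 2, Cox6a2 and Cox7a1, lower. The 16 were 10 accessory subunits of complex I (Ndufa1, Ndufa2, Ndufa3, Ndufa7, Ndufa12, Ndufb2, Ndufb4, Ndufb8, Ndufs5 and Ndufv3), Uqcrb and Uqcr11 of complex III, Cox6a1, Cox7a2 and Cox8a of complex IV, and Atp5j of the ATP synthase stalk. The 3 ubiquitous partners of muscle forms were thus all among them. How many of all genes kept their call in every fit was not counted here either. Ndufa1 was 13.3-fold higher (3.73 ± 0.27, edgeR adjusted p = 9.12e-05), Cox6a1 15.9-fold (3.99 ± 0.27, edgeR adjusted p = 8.01e-05) and Cox8a 9.87-fold (3.30 ± 0.28, edgeR adjusted p = 0.000135). Uqcrb, which lines the ubiquinone pocket of complex III, stood at 419 and 563 CPM for fat pad, 210 and 168 for muscle, and 62.7 and 72.0 for tendon (2.87 ± 0.26 against tendon, edgeR adjusted p = 0.000185). Cox8b was 4.01-fold higher than in tendon (2.00 ± 0.28, edgeR adjusted p = 0.000939), but with the length offset it was at -0.14 (edgeR adjusted p = 0.538).

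Among the larger subunits, Sdhb (1.22 ± 0.23, edgeR adjusted p = 0.00346) and Sdhc (0.59 ± 0.19, edgeR adjusted p = 0.035) were higher in fat pad than tendon. Sdha (0.56, edgeR adjusted p = 0.0877) and Sdhd (0.46, edgeR adjusted p = 0.0947) missed the threshold. Ndufs1 (-0.31, edgeR adjusted p = 0.263), Uqcrc2 (0.01, edgeR adjusted p = 0.974) and Atp5b (0.02, edgeR adjusted p = 0.954) were not called. The tendon libraries serve in both this comparison and the next, and the fat pad libraries in both comparisons above, so the 3 sets of calls are not independent.

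Between tendon and muscle most subunits were lower in tendon. Of 83 members 74 were lower and 1 higher, where 26% of all genes were called (13.3% higher and 12.7% lower). The median log2 fold change was -1.10 beside 0.10 over all genes, and 79 of the 83 values were negative. Lower calls covered 35 of 36 complex I subunits (range -1.76 to -0.73), 3 of 4 of complex II, all 8 of complex III, 12 of 18 of complex IV and 16 of 17 of complex V. The one higher member was Cox6a1 (0.98 ± 0.24, edgeR adjusted p = 0.0301), and its fellow Cox8a gave 0.68 ± 0.26 (edgeR adjusted p = 0.0925). The muscle forms were lower in tendon, Cox7a1 by -1.66 ± 0.29 (edgeR adjusted p = 0.0129), Cox6a2 by -1.44 ± 0.41 (edgeR adjusted p = 0.0444) and Cox8b by -1.34 ± 0.27 (edgeR adjusted p = 0.0182). Cox7a2, a ubiquitous form, was lower as well (-0.94 ± 0.26, edgeR adjusted p = 0.0389).

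The counts changed with single libraries and with the scaling. Without muscle library 1 or without muscle library 2 no member was called by edgeR, and 43 (0.263%) and 19 (0.116%) genes were called in the whole table. The median of the members was -0.98 and -1.21 in these fits, beside 0.099 and 0.17 over all genes. Without tendon library 1 there were 28 lower calls, beside 4.45% of all genes, and the median was -1.02. With total counts in place of TMM, 3 members were higher and 11 lower, beside 37.6% and 2.51% of all genes, with a median of -0.37 beside 0.83. In the deposited TPM, as scaled by the authors, 6 members were higher and none lower, beside 29.1% and 3.57% of all genes, and 59 of the 75 called members changed sign. For muscle and tendon these TPM did not follow the counts of the same libraries (correlation of library 2 over 1 -0.297 and -0.257). The part of scaling and of that mismatch in the changed signs was not tested. After TMM rescaling of those TPM values 2 were lower and none higher, beside 8.57% and 9.67%, with a median of -0.36. With the length offset 74 members were lower and 2 higher, beside 14% of all genes in each direction. DESeq2 on the same counts called 79 members, beside 36.6%. No member was called in the same direction in all 17 fits.

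Complexes I, II, III and V had negative values only (SD over members 0.17 to 0.23), while complex IV ran from -1.66 for Cox7a1 to 1.46 for Cox6b2, with 4 of 18 values positive (SD 0.89). The lowest in complex I was Ndufc1 (-1.76 ± 0.30, edgeR adjusted p = 0.0119) and the least lowered Ndufb3 (-0.73 ± 0.21, edgeR adjusted p = 0.0451). In complex II, Sdha gave -1.14 ± 0.25 (edgeR adjusted p = 0.021), Sdhb -1.07 (edgeR adjusted p = 0.0197) and Sdhd -1.04 (edgeR adjusted p = 0.0174), with Sdhc at -0.63 (edgeR adjusted p = 0.0533). In complex III they ran from Uqcrb (-1.49 ± 0.25, edgeR adjusted p = 0.0119) to Uqcrfs1 (-0.85, edgeR adjusted p = 0.0327). In complex V they ran from Atp5k, a membrane subunit (-1.35 ± 0.25, edgeR adjusted p = 0.0139), to Atp5h of the stalk (-0.80 ± 0.21, edgeR adjusted p = 0.0328). Besides Sdhc and Cox8a, the members not called were Ndufa2, Cox4i1, Cox4i2, Cox6b2, Cox7a2l and Atp5a1, of which Ndufa2, Cox4i1 and Atp5a1 gave -0.84, -0.77 and -0.88 (edgeR adjusted p = 0.0522, 0.0561 and 0.0615).

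Genes that build or serve the chain were read beside the subunits. For comparison, 29.8% of all genes were higher and 29.6% lower in fat pad than muscle, 27.2% and 31.4% in fat pad than tendon, and 13.3% and 12.7% in tendon than muscle. Of 46 assembly factors tested, 13 were higher and 13 lower in fat pad than muscle, 30 higher and 2 lower than in tendon, and 35 lower and none higher in tendon than in muscle. Under the length offset the first pair of counts became 8 higher and 23 lower (27.8% and 30.4% of all genes), the next 15 and 8 (23.4% and 30.3%). With total counts 7 assembly factors were lower and 1 higher in tendon than in muscle (2.51% and 37.6%). Of 13 citric acid cycle enzymes 11 were lower in fat pad than muscle and none higher (median -1.41), among them Cs, citrate synthase (-2.34). The count was the same with the length offset, with a median of -1.51. In tendon against muscle 12 of 13 were lower, a count that fell to 3 with total counts and to 0 in the deposited TPM. Of 11 outer membrane and import genes 6 were lower and 1 higher in fat pad than muscle, with Vdac1, the main pore of the outer membrane, at -4.37.

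Regulators of respiratory genes were mostly lower in the fat pad. Of 17 tested, 14 were lower than in muscle and none higher (median -1.73), and 11 were lower than in tendon, beside 29.6% and 31.4% of all genes. Esrra, an oestrogen-related receptor that acts on respiratory genes, stood at 13.7 and 12.3 CPM for fat pad, 116 and 106 for muscle, and 78.1 and 84.9 for tendon (-3.09 against muscle, edgeR adjusted p = 4.81e-05). Ppargc1a, its coactivator, stood at 5.31 and 6.78, at 55.4 and 43.9, and at 78.2 and 19.3 CPM (-3.04, edgeR adjusted p = 0.00476), and its tendon libraries lay on both sides of the muscle ones. Nrf1, which binds the NRF1 motif, was not called (0.59, edgeR adjusted p = 0.0896). With the length offset 14 regulators were lower and 2 higher than in muscle. Between tendon and muscle 3 were lower and 1 higher, and with total counts 5 were higher and none lower, beside 37.6% and 2.51% of all genes. Of 5 genes for cytochrome c and subunits outside the symbol rule, cytochrome c itself, Cycs, stood at 307 and 490 CPM for fat pad, 282 and 252 for muscle, and 80.6 and 102 for tendon. Ndufa4l2, a relative of Ndufa4 induced under low oxygen, was higher in tendon than in muscle (2.52, edgeR adjusted p = 0.00391), opposite in sign to Ndufa4 (-1.30, edgeR adjusted p = 0.0196).

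Within a tissue, library 2 was set against library 1 over genes whose higher library had 100 counts or more. With 1 library on each side these ratios have no replicate check. In the fat pad 78 of 83 members were higher in library 2, with a median log2 ratio of 0.35 beside 0.004 over all genes. In muscle 75 of 82 were lower in library 2 (median -0.28 beside 0.022), and in tendon 72 of 83 were higher (median 0.22 beside 0.021). In the deposited TPM the medians for muscle (0.078) and tendon (-0.25) were opposite in sign to those of the counts, and that for fat pad was 0.40. Whether library columns are exchanged in one of the muscle or tendon tables, which would turn these directions, was not tested. In the counts the members differed between libraries by less than the 2-fold mark, with Cox6a2 in the fat pad the single exception at 1.30 (95% exact interval for counting error 1.01 to 1.61).

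Complex II medians lay nearer 0 than those of the other complexes in all 3 tissues. The complex II median ratio was -0.015 for fat pad, -0.042 for muscle and 0.021 for tendon. Complexes I, III, IV and V gave 0.33, 0.35, 0.43 and 0.29 for fat pad, -0.30, -0.28, -0.31 and -0.25 for muscle, and 0.26, 0.23, 0.16 and 0.29 for tendon. Complex II has only 4 genes and their difference from the rest was not tested. Other genes differed with length between the same libraries: from the shortest to the longest 20% their median went from 0.20 to -0.11 for fat pad, from -0.18 to 0.18 for muscle and from 0.19 to -0.13 for tendon. Beside the fat pad values, 3 erythroid markers summed to 29184 CPM in library 1 and 9372 in library 2, and 4 neutrophil markers to 1604 and 212. The part of length and of blood cells in the ratios was not tested.

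**Figure D5:**
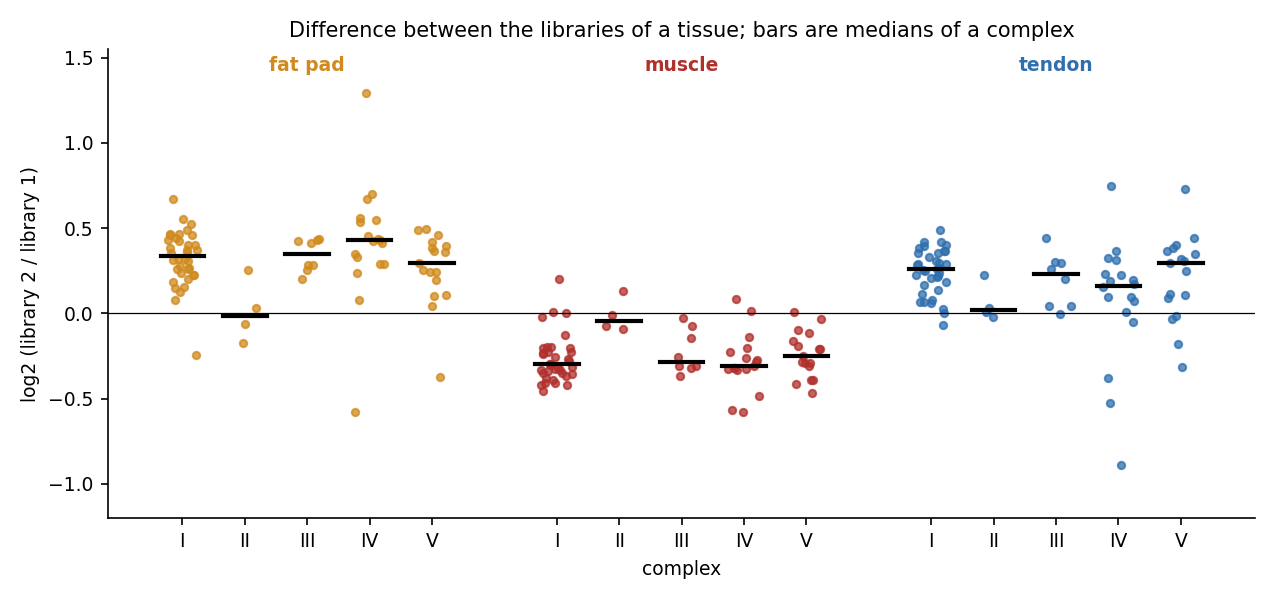
Log2 ratio of library 2 over library 1 for each member by complex and tissue, with bars for medians. Members of complexes I, III, IV and V lie mostly on 1 side of 0 in each tissue (medians 0.29 to 0.43 in the fat pad, -0.31 to -0.25 in muscle), while the complex II median lies near 0; in the deposited TPM the muscle and tendon medians over all members had the opposite sign.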

How the data were processed

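The authors deposited raw read counts, in whole numbers by Ensembl gene, in 1 table a tissue. The authors also deposited TPM, a unit meant to correct for transcript length and depth, for protein-coding genes. Bowtie2, RSEM 1.3.1, DESeq2 1.4.5 and GRCm39 appear, with no roles, in the submitters' processing notes. How reads were counted, the strand setting and the annotation: not given in the sources used here. Unused per-sample columns numbered 0. Library 2 over library 1 agreed between counts and deposited TPM in the fat pad (correlation across 10898 genes 1.0), but not in muscle (-0.297 over 10191 genes) or tendon (-0.257 over 11498). Counts were used for the main values, and deposited TPM entered only as alternatives. Which of the 2 is right for muscle and tendon was not tested. In fat pad library 1, 97.6% of 10179 genes had counts over TPM within 5% of a fixed multiple of the summed length of all their transcripts. For exonic length the figure was 9.44%, so TPM there followed the summed length. That sum grows with the number of transcripts listed for a gene. Levels and isoform shares in TPM therefore also depend on that number in this library. The other libraries were not checked in this way.

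Genes in all 3 count tables (16964) were fitted with edgeR 4.0.16 in R 4.3.3: TMM scaling, filterByExpr, 1 term per tissue over all 6 libraries, glmQLFit and glmQLFTest, Benjamini-Hochberg adjustment over 15856 genes, threshold 0.05. The biological coefficient of variation was 0.336. A standard error is log2 fold change over the root of F. TPM were tested with limma 3.58.1 on log2(TPM + 1) or log2(TPM + 0.1), and DESeq2 1.42.0 was an alternative test on the counts. The script was tested on simulated data. Isoform shares have exact binomial intervals, computed with scipy 1.17.1, and library ratios a prior count of 2. The offset for exonic length and the TMM rescaling of TPM were chosen after seeing the data. Exonic lengths and overlaps came from GENCODE on GRCm38, used for no coordinates. Without a known strand setting, counts are uncertain where exons overlap another gene, above all for Atp5o (47.9% of exonic bases), Ndufb6 (39.0%) and Ndufa13 (30.0%). In Cox6a2 (10.3%) and Cox4i1 (9.94%) the overlap was smaller.

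The members, lists and tests were chosen with earlier results of these data known. Named were the complex IV isoforms, for each complex the member with the highest level per length and those with the highest and lowest fold change, members called against the median, complex II and the catalytic cores. Ndufv3, Atp5md, Ndufa2 and the other members called in every fit were named after their values were seen. Some genes that the rule names are not reported here singly.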

Additional observations from a re-analysis of the deposited data

Results flagged for a closer look

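Cox7b2, a testis form of subunit VIIb, was listed in the fat pad tables only, with 20 counts in library 1 and 35 in library 2, both above the 3 counts that a count of 0 allows. Cox8c, a testis form of subunit VIII, was listed there with 10 counts in library 1 and 0 in library 2. Neither entered a comparison between tissues, since the muscle and tendon tables do not list them.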

How the results depend on the processing

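Over the 35, 26 and 27 members named for the 3 comparisons and the 16 alternatives each, single fold changes kept direction and call in 465, 341 and 264 cases and lost the call in 45, 25 and 101, in the order fat pad against muscle, fat pad against tendon and tendon against muscle. They reversed in 5, 22 and 37.

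For fat pad against muscle 33 members were called. Total counts gave 55, the length offset 62, and leaving out a library 21 to 37, with 21 without either muscle library. For fat pad against tendon 60 were called, 38 with the offset and 51 to 60 with a library left out. For tendon against muscle 75 were called, 14 with total counts, 6 with TPM at either pseudocount, 2 with TPM rescaled by TMM, and 0 to 70 with a library left out: 0 without either muscle library, 28 without tendon library 1 and 69 without tendon library 2. The share of all genes called moved as well, also with a library left out. For fat pad against muscle it was 59.4% in the main fit, 61.6% with total counts and 58.2% with the offset. For fat pad against tendon it was 58.5% in the main fit and 53.8% with the offset. For tendon against muscle it was 26% in the main fit and 40.2% with total counts. For that comparison TPM gave 32.6% (pseudocount 1), 30% (pseudocount 0.1) and 18.2% (rescaled by TMM). The causes were not tested. Each fit with a library left out has fewer residual degrees of freedom and takes the lone library to vary like the other tissues. The deposited TPM hold fewer genes (14929 tested).

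No label says whether equal library numbers in different tissues mean the same animal. The correlation of library 2 over 1 between tissues was -0.027, 0.002 and -0.167 over 15856 genes, which cannot decide it, since animals may differ in another way in each tissue. With the replicate block 27, 55 and 45 members were called in the 3 comparisons, beside 54.5%, 54.6% and 17.4% of all genes.

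With the length offset, reversed values for fat pad against muscle were Atp5md -0.14, Cox4i1 -0.70, Cox6b1 -0.56, Cox8b -1.04 and Sdhb -0.71. For fat pad against tendon they were Cox4i1 -0.049, Cox7a2l -1.19, Cox7b -0.41, Cox8b -0.14, Sdhd -0.92 and Uqcrc2 -0.76.

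In TPM with a pseudocount of 1 and 0.1, fat pad against tendon reversed to -1.26 for Atp5b with both, -1.15 and -1.16 for Cox7a2l, -0.24 for Cox7b with both, -0.70 for Sdha with both, -0.13 for Sdhb with both, -0.70 for Sdhc with both, -0.83 for Sdhd with both, and -1.53 for Uqcrc2 with both.

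In TPM with a pseudocount of 1 and 0.1, tendon against muscle reversed to 0.30 for Atp5b and Cox7b, 0.73 and 0.74 for Atp5h, 0.098 for Atp5k, 0.069 for Cox6a2, 0.31 for Cox6b1, 0.033 for Cox7a1, 0.35 for Cox7a2, 0.68 for Cox7a2l, 0.20 for Cox8b, 0.61 for Ndufb3, 0.15 for Sdha, 0.38 for Sdhb, 0.20 for Sdhd, 0.061 for Uqcr11, 0.024 for Uqcrb and 0.13 for Uqcrfs1. Rescaled TPM gave 0.16 for Atp5h and 0.025 for Ndufb3, and total counts 0.0012 for Ndufb3.

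Isoform shares moved as follows. Per kb, Cox7a1 took 2.75% for fat pad, 68.6% for muscle and 57.3% for tendon, and Cox8b 50.2%, 90.6% and 71.2%. In TPM, Cox6a2 took 0.449% in the fat pad and 93.5% in tendon, Cox7a1 2.63%, 59.3% and 53.9%, and Cox8b 63.1%, 90.4% and 81.5%. The order muscle, tendon, fat pad held throughout. The median ratio of library 2 over 1 was 0.31 for fat pad, -0.19 for muscle and 0.057 for tendon with total counts, and 0.40, 0.078 and -0.25 with TPM.

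Depth limits only Cox4i2, Cox6b2, Cox7b2, Cox8c and Cox6a2 in the fat pad, where counts ran from 0 to 382.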
